A study of Mus musculus with 12 samples.

Results

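The Cyp4 genes described here encode 7 cytochrome P450 enzymes of mouse small intestine, namely Cyp4a10, Cyp4a14, Cyp4b1, Cyp4f13, Cyp4f14, Cyp4f16 and Cyp4v3. They were taken as listed symbols, found by name in the adult gene table and matched to the neonate table by Entrez Gene identifier. All 7 were found, out of 21 Cyp4 genes and 23319 genes present in both tables. The RNA came from the whole small intestine of C57BL/6 mice, frozen and ground, and was sequenced as stranded mRNA libraries. Wild type mice (WT) were compared with mice carrying an intestinal knockout of the nuclear receptor corepressor NCoR1 (KO), at postnatal day 12 (neonates) and at 10 weeks (adults). Each of the 4 groups held 3 libraries, and each library pooled the RNA of 2 mice. Strain names F/FUN and DIECUN appear in the design text without being tied to a group, and neither the Cre line nor the promoter behind the knockout is stated in the sources used here.

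Cyp4 enzymes sit in the endoplasmic reticulum and add a hydroxyl group to the far, omega end of fatty acids and related lipids. They draw electrons from NADPH through cytochrome P450 reductase, with cytochrome b5 as a helper. The omega-hydroxy acid is oxidised by alcohol and aldehyde dehydrogenases to a dicarboxylic acid, which peroxisomes shorten by beta-oxidation. Cyp4a genes are well known targets of the fatty acid receptor PPAR-alpha in rodents, and NCoR1 is recruited by nuclear receptors to hold their target genes down in the absence of ligand. Cyp4f enzymes are known for inactivating leukotriene B4, and Cyp4b1 handles shorter fatty acids and some foreign compounds. Cyp4v3 is the mouse counterpart of human CYP4V2, the gene mutated in Bietti crystalline dystrophy of the retina.

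The stretch of coding sequence that holds the haem-binding cysteine is shown here because it lets the 7 members be told apart. The 30 bases of each gene are given 5′ to 3′ on the coding strand, read from the mm9 genome with GENCODE annotation, with the cysteine codon in capitals. In each gene the stretch crosses an intron, which is left out.
Cyp4a10: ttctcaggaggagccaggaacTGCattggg
Cyp4a14: ttctcaggaggatcaaggaacTGCattggg
Cyp4b1: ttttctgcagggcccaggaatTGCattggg
Cyp4f13: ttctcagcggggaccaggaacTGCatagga
Cyp4f14: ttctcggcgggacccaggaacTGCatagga
Cyp4f16: ttttctgccgggcccaggaacTGCatagga
Cyp4v3: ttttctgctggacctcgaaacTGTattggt
Cyp4a10 and Cyp4a14 share 28 of these 30 bases, and Cyp4f13 and Cyp4f14 share 27. Cyp4f16 shares 26 with Cyp4b1, as it does with Cyp4f13 and Cyp4f14, so the stretch alone does not group the members. Over the whole coding sequence Cyp4b1 and Cyp4f16 were 64.4% identical. Cyp4v3 stands furthest away, sharing 19 to 22 bases with the others. Over the whole coding sequence Cyp4f13 and Cyp4f16 were 82.6% identical, Cyp4a10 and Cyp4a14 76.8%, and Cyp4v3 between 56.5% and 59.8% identical to the other members.

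This likeness bears on the counts, because reads of 36 bases from near-identical genes cannot always be placed. Of all windows of that length in its exons, Cyp4a10 had 46.3% that occur more than once in the mm9 genome, and its coding sequence is 97.2% identical to Cyp4a32 and 96.6% to Cyp4a31. The share of repeated windows was 31.0% for Cyp4f16, 16.6% for Cyp4b1, 7.86% for Cyp4f13, 3.49% for Cyp4f14 and 1.25% for Cyp4a14. Cyp4v3 had no repeated window among 2566. The sources used here do not say how reads that match several places were counted, so the values of Cyp4a10 and Cyp4f16 are uncertain by the reads they may share with relatives.

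In mm9 coordinates, 3 members lie in a Cyp4 cluster on chromosome 4, namely Cyp4a14 (chr4:115158805-115168746, minus strand, Entrez Gene 13119), Cyp4a10 (chr4:115190892-115206254, plus strand, Entrez Gene 13117) and Cyp4b1 (chr4:115297333-115320310, minus strand, Entrez Gene 13120). A second cluster on chromosome 17 holds Cyp4f16 (chr17:32673574-32688742, plus strand, Entrez Gene 70101), Cyp4f14 (chr17:33042015-33054287, minus strand, Entrez Gene 64385) and Cyp4f13 (chr17:33061633-33084306, minus strand, Entrez Gene 170716). Cyp4v3 stands alone on chromosome 8 (chr8:46391156-46418550, minus strand, Entrez Gene 102294).

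The promoters of Cyp4b1 and Cyp4v3 are shown because these were the members whose KO effect differed between ages, described further on. The 250 bases before the gene start are printed 5′ to 3′ on the coding strand, from RefSeq on GRCm38.p6 (chr4:115647722-115647971 and chr8:45333164-45333413). Capitals mark core motifs of nuclear receptor binding sites (AGGTCA and its common variants, namely the form AGTTCA, the form GGGTCA and the form GGTTCA, each searched on both strands).
Cyp4b1: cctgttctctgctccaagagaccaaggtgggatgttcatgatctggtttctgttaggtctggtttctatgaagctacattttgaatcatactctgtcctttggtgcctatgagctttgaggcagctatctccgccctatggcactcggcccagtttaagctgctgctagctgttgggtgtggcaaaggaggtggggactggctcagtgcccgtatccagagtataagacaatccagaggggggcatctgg
Cyp4v3: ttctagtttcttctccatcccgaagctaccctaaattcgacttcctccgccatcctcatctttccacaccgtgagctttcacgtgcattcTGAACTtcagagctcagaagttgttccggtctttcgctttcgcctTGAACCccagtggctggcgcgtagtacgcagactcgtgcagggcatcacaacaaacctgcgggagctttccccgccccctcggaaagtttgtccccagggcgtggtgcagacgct
Cyp4v3 held 2 such motifs, both on the opposite strand, and Cyp4b1 held 0. RefSeq promoters were at hand for 5 of the 7 members, all but Cyp4a10 and Cyp4a14. Of the others searched, Cyp4f13 held 3 motifs, Cyp4f16 held 1 and Cyp4f14 held 0. At least 1 of the 4 motifs occurs in 38.6% of all 32851 promoters of that length, so single matches are common. A direct repeat of AGGTCA with a single base between the copies, the kind of element that PPAR-RXR pairs bind, was found in 0.0335% of all promoters and in none of these 5. Only exact copies within 250 bases were searched. At so low a share, finding none in 5 promoters says nothing about looser or more distant sites.

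Levels are given as CPM, the reads of a gene per 1000000 recovered reads of its library, computed from the deposited scaled reads, as mean ± SD over 3 libraries. Recovered reads per library ranged from 5930748 to 13057329. Ncor1 itself fell from 453 ± 6.26 to 231 ± 16.1 CPM in KO neonates and from 245 ± 6.39 to 164 ± 4.27 CPM in KO adults (limma log2 differences -0.97 and -0.58, adjusted p = 1.73e-10 and 0.00021), and no KO library overlapped WT. KO was compared with WT at each age with limma on log2(CPM + 1), a scale that understates changes of low genes, and a gene counted as called where its p, adjusted after Benjamini and Hochberg, was under 0.05. Of 14215 genes tested in neonates 741 were called higher and 2268 lower, and of 13463 in adults 741 and 1870. The median log2 difference of all tested genes was -0.11 at both ages and -0.01 with TMM scaling factors, under which the calls split into 1337 higher and 1027 lower in neonates and 1250 and 911 in adults. All p-values measure the spread between pools of mice. Nothing in the sources says whether the pools came from separate litters. The tissue carried the enterocyte markers (49757 to 81124 CPM summed over 10 genes), and none of the 10 was at 0 reads in any group.

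The 7 genes made up very different sets in neonates and adults. In WT neonates Cyp4f16 stood highest per exon length, at 70.6 ± 13.4 CPM per kb and 48.0% of the summed level of the 7. Cyp4f13 (28.6 ± 0.954 CPM per kb) and Cyp4a10 (27.3 ± 7.64 CPM per kb) followed, and these neighbours overlapped between libraries. Cyp4v3 (12.2 ± 3.30 CPM per kb) lay below them, followed by Cyp4f14 (4.93 ± 1.28 CPM per kb) and Cyp4b1 (3.47 ± 0.332 CPM per kb), which also overlapped. Cyp4f16, Cyp4f13 and Cyp4a10 were thus the leading members in the WT neonatal intestine.

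WT adults showed another order. Cyp4f14 led with 599 ± 33.7 CPM per kb, or 53.8% of the summed level, and Cyp4v3 came next with 324 ± 50.7 CPM per kb. Cyp4b1 (90.1 ± 14.98 CPM per kb), Cyp4f16 (62.3 ± 10.2 CPM per kb), Cyp4f13 (33.6 ± 2.03 CPM per kb) and Cyp4a10 (3.29 ± 1.80 CPM per kb) followed, and no neighbours in this order overlapped. Summed over the 7 genes the level was 147 ± 25.6 CPM per kb in WT neonates and 1113 ± 94.2 in WT adults. Set side by side, Cyp4f14 was 122-fold, Cyp4v3 26.5-fold and Cyp4b1 25.99-fold higher in WT adults than in WT neonates. Cyp4f13 differed 1.18-fold, Cyp4f16 overlapped between the ages, and Cyp4a10 in adults stood at 0.1202 of its neonatal level. The ages were deposited in separately scaled tables, so age and table cannot be told apart and these ratios carry no test.

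**Figure D1:**
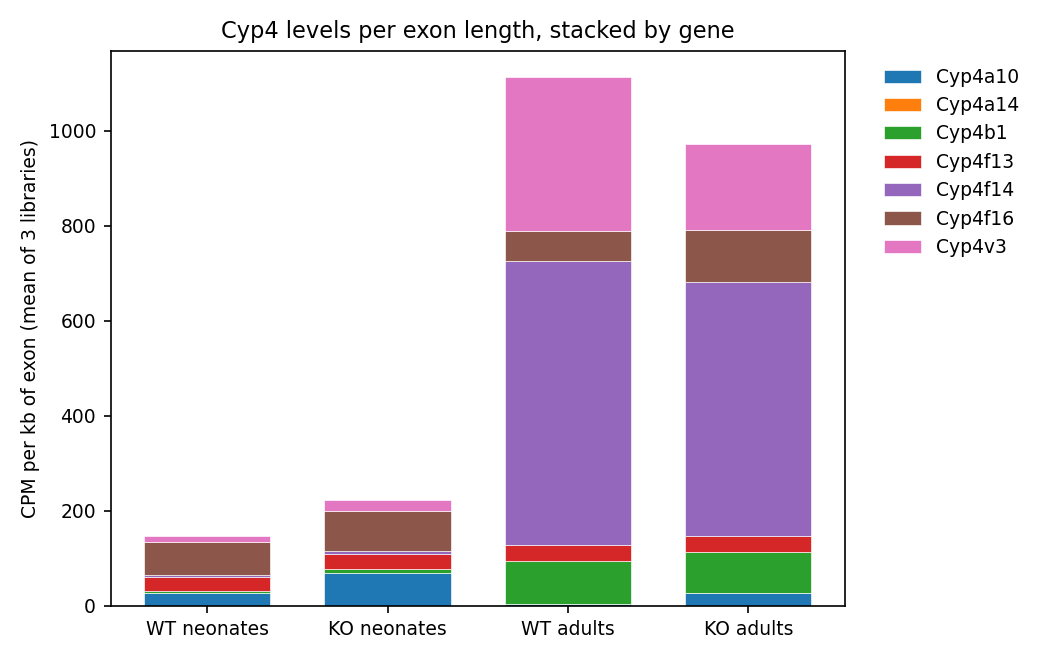
Mean level per kb of exon (CPM per kb, mean of 3 libraries) of the 7 Cyp4 genes, stacked, in each of the 4 groups. The neonatal bars reach 147 and 223 CPM per kb with Cyp4f16 as the widest band, and the adult bars reach 1113 and 973 CPM per kb with Cyp4f14 and Cyp4v3 as the widest bands.

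In KO neonates Cyp4a10 moved to the second place, at 68.3 ± 5.17 CPM per kb and 30.6% of the summed level, behind Cyp4f16 at 86.0 ± 7.85 CPM per kb. The summed level was 223 ± 10.8 CPM per kb. In KO adults Cyp4f14 still led with 534 ± 8.81 CPM per kb. Cyp4v3 stood at 181 ± 14.8 CPM per kb, 18.6% of the sum against 29.1% in WT adults. Cyp4f16, at 110.3 ± 3.71 CPM per kb, stood above Cyp4b1, at 86.3 ± 13.1 CPM per kb, the reverse of their order in WT adults. Cyp4f13 and Cyp4a10 overlapped, at 34.1 ± 1.26 and 26.6 ± 13.1 CPM per kb.

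Of the 7 genes, 6 passed the filter on low values (at least 1 CPM in at least 3 libraries), and all 6 had at least 1 CPM in all 12 libraries. Cyp4a14, an omega-hydroxylase of fatty acids that is strongly inducible in mouse liver, was the exception. It had 2 reads in WT neonates 1, 1 read each in KO neonates 3, KO adults 2 and KO adults 3, and 0 reads in the other 8 libraries. The limit that a count of 0 allows, 3 reads, corresponds to 0.230 to 0.506 CPM in these libraries and covers counting error only. No effect of the knockout on Cyp4a14 was detectable at this depth.

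**Figure D2:**
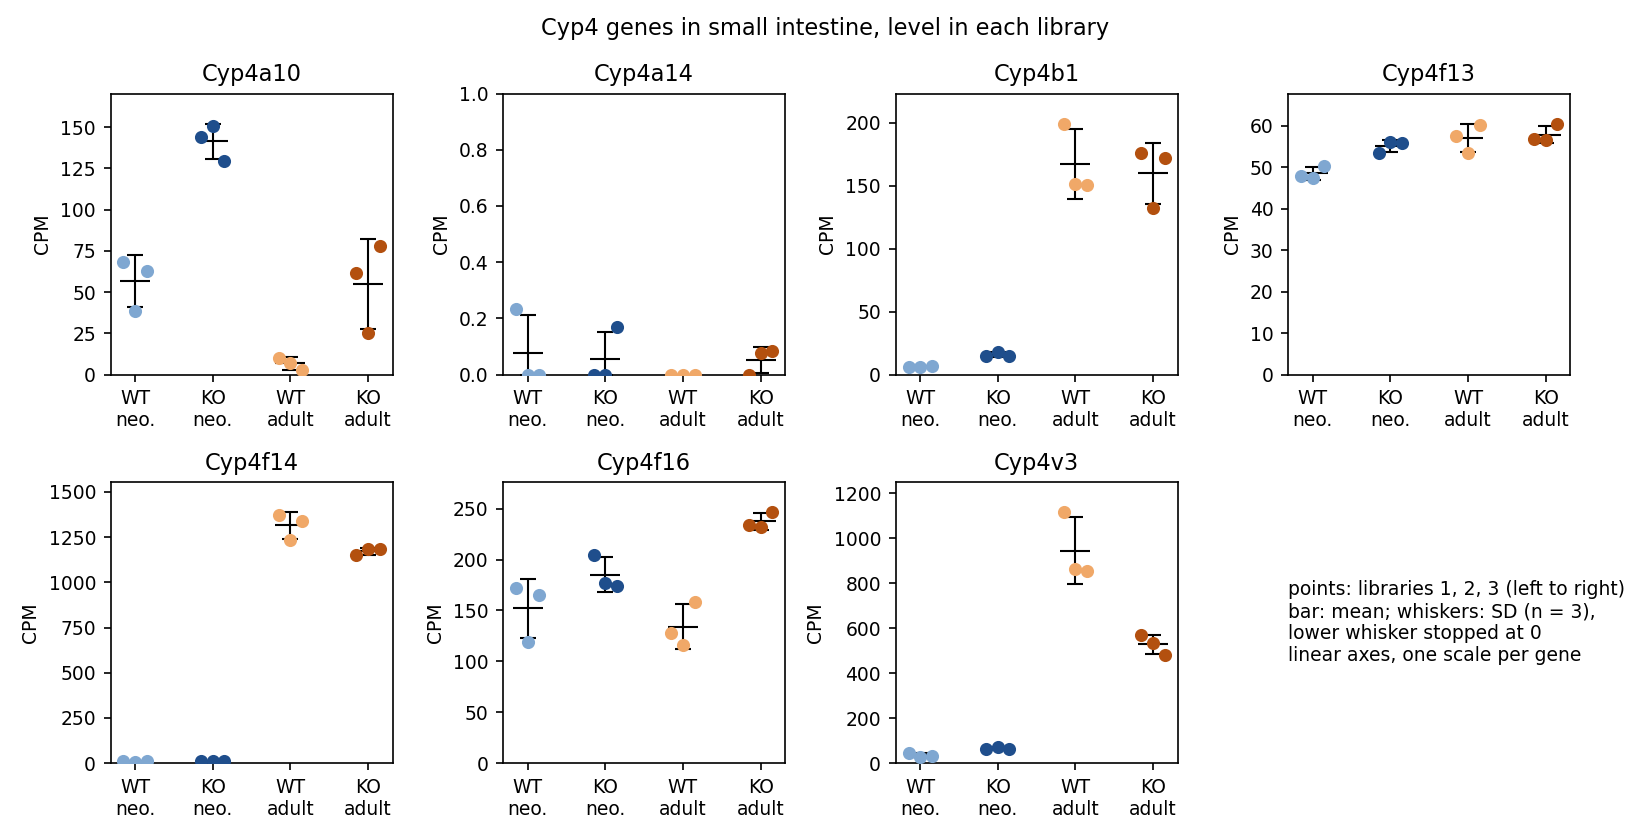
Level in CPM of each of the 7 Cyp4 genes in every library (points, libraries 1 to 3 from left to right) of the 4 groups, with the mean (bar) and SD (whiskers, n = 3), on linear axes that start at 0. Cyp4a10 was higher in every KO library than in every WT library at both ages, Cyp4v3 was higher in KO neonates and lower in KO adults, and Cyp4f16 was higher in KO adults.

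In KO neonates, 3 of the 6 tested Cyp4 genes rose, against 5.21% of all tested genes called higher. The fatty acid hydroxylase Cyp4a10 rose 2.50-fold, Cyp4b1 2.48-fold and Cyp4v3 1.84-fold. No tested member was called lower (limma, against 16.0% of all genes), none was lower at an unadjusted p under 0.05, and edgeR and DESeq2 also called 0 lower. The 3 KO libraries lay above all 3 WT libraries for 5 of the 6 members, against 8.62% of all tested genes, and below them for 0, against 28.3%.

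Cyp4a10 stood at 68.4, 38.6 and 62.8 CPM in the WT and at 144, 151 and 129.7 CPM in the KO neonates. Every KO library lay well above the highest WT library, and WT neonates 2 was the lowest. KO exceeded WT by 1.34 on the log2 scale (SE 0.251, limma adjusted p = 0.028). The call was lost without WT neonates 3, KO neonates 1, KO neonates 2 or KO neonates 3, with adjusted p between 0.0634 and 0.0919 and log2 differences between 1.30 and 1.44.

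Cyp4b1, which oxidises shorter fatty acids and foreign compounds, was scarce in neonates. Its WT libraries measured 6.33, 5.89 and 7.11 CPM and its KO libraries 14.8, 18.2 and 15.01 CPM. The groups were far apart and each was tight. On the log2 scale the rise was 1.19 (SE 0.133, limma adjusted p = 2.11e-06), and Cyp4b1 stayed called under all 14 alternatives, with an adjusted p of at most 6.2e-05.

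Cyp4v3 stood at 46.5, 28.2 and 32.3 CPM in WT and at 62.6, 70.5 and 63.9 CPM in KO neonates. All KO libraries were above WT neonates 1, the highest of the WT libraries. The rise measured 0.89 on the log2 scale (SE 0.183, limma adjusted p = 0.0191). As for Cyp4a10, the call was lost without WT neonates 3 or any of the 3 KO libraries, with adjusted p between 0.064 and 0.0677 and log2 differences between 0.84 and 0.92.

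The Cyp4f genes moved little in neonates. Cyp4f13 stood at 47.8, 47.3 and 50.3 CPM in WT and at 53.3, 56.2 and 55.8 CPM in KO libraries, a tight pair of groups that did not overlap. Its log2 difference of 0.18 (SE 0.0715) missed the threshold (limma adjusted p = 0.0787), and TMM factors, edgeR and DESeq2 put it at 0.29 with adjusted p of 0.00706, 0.0058 and 0.0315. The direction was the same in each.

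Cyp4f16 stood at 172, 119 and 165 CPM in WT and at 205, 177 and 174 CPM in KO neonates. The groups came close without overlapping, with WT neonates 2 far below the other libraries. The log2 difference was 0.30 (95% interval -0.12 to 0.72, limma adjusted p = 0.286). Over the 14 alternatives the log2 difference ran from 0.13 to 0.41 and the adjusted p from 0.0192, a call, to 0.508.

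Cyp4f14, a leukotriene B4 omega-hydroxylase, stood at 13.4, 7.81 and 11.3 CPM in WT and at 13.3, 9.50 and 9.78 CPM in KO neonates. The groups overlapped fully. Their log2 difference was 0.02, with a 95% interval from -0.35 to 0.39 (limma adjusted p = 0.95).

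WT neonates 2 was the lowest WT library for all 6 tested members. It also had the highest summed smooth muscle markers of its group (2256 CPM over 6 genes, against 1605 and 1478) and the highest fibroblast markers (2579 CPM over 6 genes, against 2142 and 1971). Enterocyte markers summed to 71621 to 75520 CPM in WT and 78003 to 81124 CPM in KO neonates. Of the 10, 8 were called higher and 1 lower, against 5.21% and 16.0% of all tested genes (9 and 0 with TMM factors). Summed hepatocyte markers were 199 to 221 CPM in WT and 323 to 345 CPM in KO neonates, carried by Ttr. Of the other hepatocyte markers Serpina1a, Fga and Fgb were called lower, and Alb stood at 7.12 ± 6.29 and 1.01 ± 0.254 CPM. Fibroblast markers summed to 1971 to 2579 CPM in WT and 1777 to 1975 CPM in KO neonates, and overlapped. Groups that did not overlap were myeloid markers (279.5 to 317 CPM in WT, 180.4 to 220.1 in KO), enteroendocrine markers (284 to 297 in WT, 227 to 266 in KO) and enteric neuron and glia markers (49.8 to 67.9 in WT, 36.9 to 45.7 in KO). Stem and proliferation markers (773 to 835 CPM in WT, 717 to 753 in KO) did not overlap either. Nor did tuft markers (12.5 to 15.1 CPM in WT, 8.09 to 11.8 in KO). These sums, from myeloid to tuft, were all lower in KO. Of all tested genes, 28.3% had every KO library below WT. The list median log2 differences were -0.41 for myeloid, -0.13 for enteroendocrine, -0.22 for neuron and glia, -0.07 for stem and -0.38 for tuft markers. All tested genes had a median of -0.11. With TMM factors the list medians were -0.30, -0.02, -0.13, 0.04 and -0.30 in the same order. The part of these shifts in the Cyp4 values was not tested. In whole tissue, more cells of a type and more RNA per cell cannot be told apart.

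In KO adults, Cyp4f16 rose and Cyp4v3 fell, while the other tested members were not called. The count of members called was 1 of 6 higher, against 5.50% of all tested genes, and 1 of 6 lower, against 13.9%. The 3 KO libraries lay above all WT libraries for Cyp4a10 and Cyp4f16, against 10.4% of all genes, and below them for Cyp4f14 and Cyp4v3, against 27.8%.

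Cyp4v3 stood at 1117, 866 and 856 CPM in WT and at 568, 535 and 483 CPM in KO adults. Every KO library lay well below every WT library, and WT adults 1 was the highest. The level in KO was 0.559 of that in WT (946 ± 148 to 529 ± 43.2 CPM, log2 -0.83, SE 0.109, limma adjusted p = 0.000317), and the call held under all 14 alternatives, with an adjusted p of at most 0.0118. It was the largest fall among the 6 tested members in adults.

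Cyp4f16 stood at 128, 116 and 158 CPM in WT and at 234, 232 and 247 CPM in KO adults. The KO libraries were tight and all above WT adults 3, the highest WT library. It rose 1.77-fold (134 ± 21.9 to 237 ± 7.99 CPM, log2 0.83, SE 0.103, limma adjusted p = 0.000225), and the call held under all 14 alternatives, with an adjusted p of at most 0.00358.

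Cyp4a10 showed the widest scatter of the tested members in adults on the log2 scale. Its WT libraries measured 10.3, 7.28 and 2.86 CPM and its KO libraries 61.8, 25.2 and 78.1 CPM. The groups did not overlap, but WT adults 3 and KO adults 2 lay far below their companions. The ratio of the means was 8.08 and the log2 difference 2.83 (SE 0.651), with a 95% interval from 1.06 to 4.60, and limma's adjusted p of 0.0538 missed the threshold. Over the 14 alternatives the adjusted p ran from 7.71e-05, with DESeq2, to 0.170, and a filter at 5 CPM gave 0.0446. Pancreatic acinar markers, from tissue that can be caught in dissection, summed to 273 CPM in KO adults 2, against 1493 and 1896 CPM in the other KO adults, and to 1754, 5330 and 2085 CPM in WT adults. The part of this in the Cyp4a10 scatter was not tested.

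Cyp4f14, the most abundant member in adults, stood at 1373, 1231 and 1339 CPM in WT and at 1149.5, 1184 and 1182 CPM in KO. The KO libraries lay just below the lowest WT library. The log2 difference was -0.16 (95% interval -0.34 to 0.01, limma adjusted p = 0.181), against a median of -0.11 for all tested genes. With TMM factors the means were 1266 CPM in WT and 1219 CPM in KO adults. Over the 14 alternatives the log2 difference ran from -0.21 to -0.05.

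Cyp4b1 stood at 199, 152 and 151 CPM in WT and at 176, 132 and 172 CPM in KO adults. The groups overlapped. The log2 difference was -0.06, with a 95% interval from -0.38 to 0.26 (limma adjusted p = 0.791), and TMM factors turned it to 0.05.

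Cyp4f13 was level across adults, with WT libraries at 57.5, 53.4 and 60.3 CPM and KO libraries at 56.7, 56.6 and 60.4 CPM. These groups overlapped too. Their log2 difference was 0.02, with a 95% interval from -0.15 to 0.20 (limma adjusted p = 0.881).

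Among markers in adults, Paneth cell genes summed to 10778 to 13138 CPM in WT and 6959 to 9080 CPM in KO. Of these, 4 of 6 were called lower, against 13.9% of all tested genes. Enterocyte markers summed to 49757 to 56926 CPM in WT and 56820 to 61541 CPM in KO, and overlapped. Here 2 of 10, Apoa1 and Fabp1, were called higher, against 5.50%, and 0 lower. The list median log2 difference was 0.0007, against -0.11 for all tested genes. Vil1 (2548 to 2233 CPM) and Epcam (2119 to 1831 CPM) were lower in every KO library than in every WT library, though not called. Apoa1, Vil1 and Epcam were named after their values were seen. Fibroblast markers summed to 444 to 590 CPM in WT and 349 to 364 CPM in KO, with 3 of 6 called lower, against 13.9%. Their part in the Cyp4 values was not tested.

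**Figure D3:**
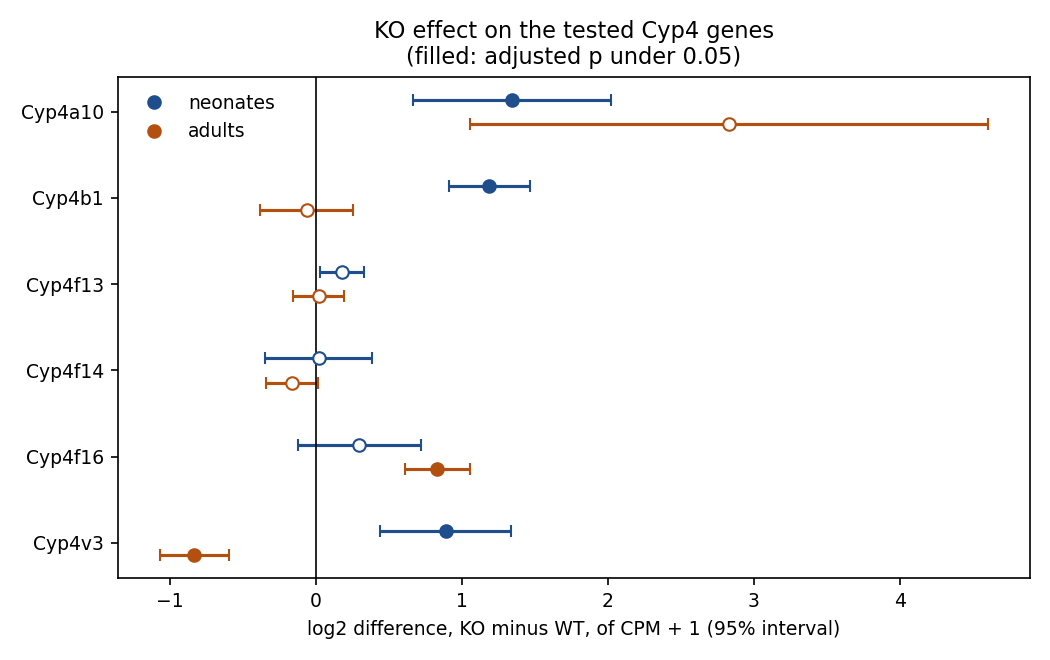
KO minus WT log2 difference of CPM + 1 (horizontal axis) with its 95% interval for the 6 tested Cyp4 genes (rows) in neonates (blue) and adults (orange), filled where the adjusted p was under 0.05. Cyp4v3 lies at 0.89 in neonates and -0.83 in adults, on opposite sides of 0, and the adult interval of Cyp4a10 is the widest, from 1.06 to 4.60.

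Whether the knockout acted differently at the 2 ages was tested directly, by subtracting the neonatal from the adult KO effect in a fit of all 4 groups over 14588 genes, of which 5.46% were called. Cyp4b1 and Cyp4v3 differed, both with a lower effect in adults, so 2 of the 6 members were called lower, against 2.44% of all tested genes. For Cyp4v3 the difference was -1.72 on the log2 scale (95% interval -2.27 to -1.18, limma adjusted p = 0.0032), its level having risen in KO neonates and fallen in KO adults. For Cyp4b1 it was -1.25 (95% interval -1.63 to -0.87, limma adjusted p = 0.000504), the gene having risen in KO neonates and not been called in KO adults. These are the genes whose promoters are printed above, with 2 receptor core motifs for Cyp4v3 and 0 for Cyp4b1. Both calls held under all 20 alternatives, with adjusted p of at most 0.0332 for Cyp4b1 and 0.0113 for Cyp4v3.

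No member was called in the other direction (limma, against 3.02% of all genes), 1 was higher at an unadjusted p under 0.05, and edgeR and DESeq2 called 0. The member with that unadjusted p was Cyp4f16, with a difference of 0.53 (95% interval 0.09 to 0.98, limma adjusted p = 0.170), which was called without WT neonates 2 (adjusted p = 0.008) and from the deposited RPKM values (adjusted p = 0.0153). Cyp4a10 had the largest estimate, 1.49, with an interval from -0.14 to 3.11 (limma adjusted p = 0.305). For Cyp4f13 the difference was -0.16 (95% interval -0.37 to 0.05) and for Cyp4f14 -0.18 (95% interval -0.71 to 0.34), neither called. An effect called at one age only, as that of Cyp4a10 in neonates or of Cyp4f16 in adults, was therefore not shown to differ between the ages.

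The chromosome 4 cluster spans 539 kb and holds 10 Cyp4 genes in the tables, of which Cyp4a10 and Cyp4b1 passed the filter. Around Cyp4a10, its near-identical relatives Cyp4a31 and Cyp4a32 had 0 to 9 reads per library, and the pseudogenes and Cyp4a12 genes 0 or 1. The chromosome 17 cluster spans 513 kb and holds 9 Cyp4 genes and 4 zinc finger genes. Cyp4f14 and Cyp4f13 are direct neighbours there, and the first was 122-fold higher in WT adults than WT neonates while the second was 1.18-fold higher. Of the zinc finger genes between the Cyp4f genes, Zfp871 fell from 252 to 222 CPM in KO neonates and from 200.2 to 149.6 CPM in KO adults (limma adjusted p = 0.0226 and 0.0152), and Zfp799 fell too (adjusted p = 0.0247 and 0.00468). The neonatal log2 difference of Zfp871 was -0.18, against a median of -0.11 for all tested genes. These were 2 of 4 zinc finger genes tested in neonates and 2 of 3 in adults, against 16.0% and 13.9% of all tested genes called lower. The others were not called where tested (limma adjusted p of 0.316 or more).

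Of the 14 Cyp4 genes outside the members, 3 could be tested at each age. Cyp4f15, a close relative of Cyp4f14 with 82.2% coding identity, stood at 1.10, 0.710 and 1.23 CPM in WT and at 2.58, 1.38 and 2.85 CPM in KO adults. All KO libraries were above WT. Because the gene passed the filter only through its KO libraries, where it was high, its limma call (log2 0.68, adjusted p = 0.0376) is given as a description. The call was absent with DESeq2 (adjusted p = 0.0517), with no filter (limma adjusted p = 0.0506) and when WT adults 1, WT adults 2, KO adults 1 or KO adults 3 was left out (limma adjusted p 0.0566 to 0.168).

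Cyp4f40 stood at 5.67 ± 1.96 and 7.07 ± 0.784 CPM in WT and KO neonates and at 38.8 ± 4.55 and 34.5 ± 4.60 CPM in WT and KO adults, and was not called at either age (limma adjusted p = 0.262 and 0.32). Cyp4f18, a leukotriene B4 hydroxylase of mouse neutrophils, stood at 4.51 ± 1.28 and 2.84 ± 0.843 CPM in neonates and at 2.79 ± 1.13 and 2.25 ± 0.253 CPM in adults (limma adjusted p = 0.0806 and 0.55). Cyp4f17 was tested in neonates only, at 1.88 ± 0.489 and 2.22 ± 0.451 CPM (limma adjusted p = 0.62). In all of these the libraries of WT and KO overlapped.

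**Figure D4:**
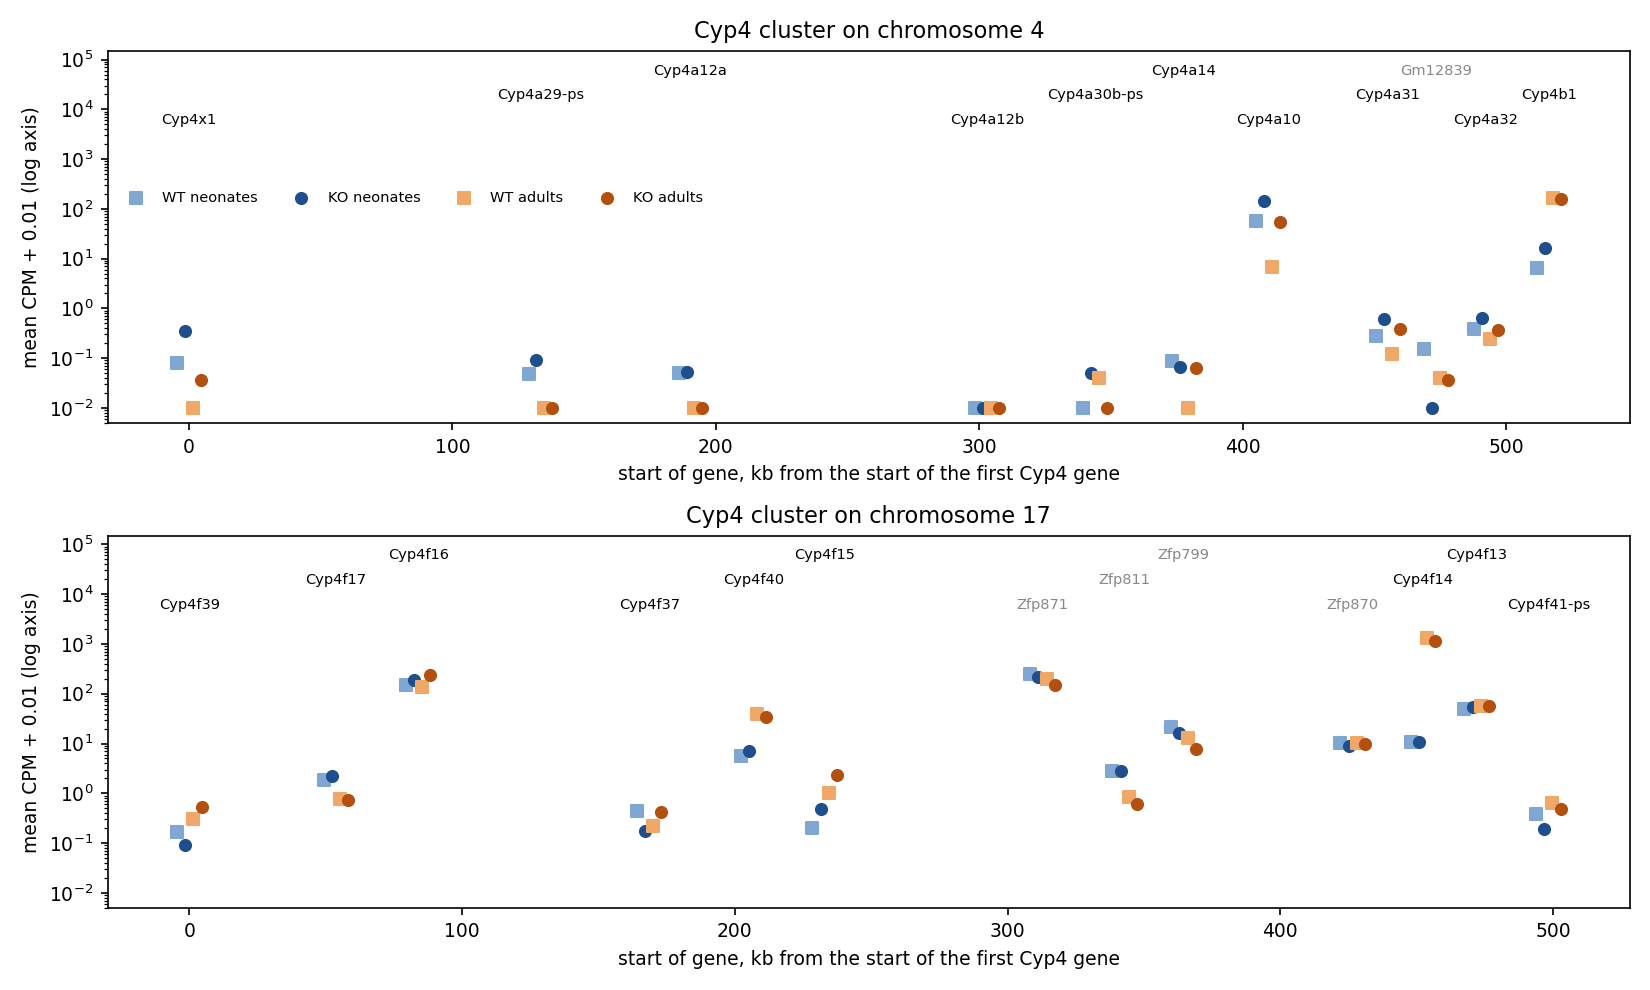
Mean CPM plus 0.01 (log axis) of every gene in the Cyp4 clusters on chromosomes 4 and 17, placed by the distance of its start from that of the first Cyp4 gene in kb, for WT (squares) and KO (circles) neonates (blue) and adults (orange). On chromosome 4 only Cyp4a10 and Cyp4b1 rise above 1 CPM, and on chromosome 17 Cyp4f14 has the widest gap between ages.

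The enzymes that work with Cyp4 proteins were followed from electron supply to the peroxisome. Cytochrome P450 reductase, Por, rose at both ages, from 99.2 ± 5.87 to 168 ± 11.4 CPM in neonates and from 304 ± 40.0 to 546 ± 56.3 CPM in adults (limma log2 0.76 and 0.85, adjusted p = 6.92e-08 and 0.000237). Cytochrome b5, listed as Cyb5, rose in neonates from 114 ± 3.41 to 159 ± 4.05 CPM and stood at 408 ± 39.0 and 446 ± 22.7 CPM in adults, where it was not called. Of the 5 tested electron donors, 2 were called higher in neonates and 1 in adults, against 5.21% and 5.50% of all tested genes, with a median log2 difference of 0.24 and 0.13, against -0.11 for all tested genes at each age.

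Of the alcohol and aldehyde dehydrogenases of the next steps, 3 of 5 tested were called higher in neonates, against 5.21% of all tested genes. Adh1 rose from 85.0 ± 7.95 to 215 ± 28.7 CPM and Aldh3b1 from 23.1 ± 2.82 to 29.5 ± 4.01 CPM (limma adjusted p = 1.46e-06 and 0.0331). The call on Aldh3b1 was absent with no filter (limma adjusted p = 0.0504), with RPKM (0.158) and without WT neonates 3 (0.157) or KO neonates 2 (0.179). The remaining one, Adh4, stood at 1.18 ± 0.725 and 4.78 ± 1.19 CPM and passed the filter only through its KO libraries, so its call is a description. In adults 0 of 6 were called with limma, 2 were higher at an unadjusted p under 0.05, and edgeR and DESeq2 each called 1. Adh1 was more abundant there and scattered, at 715 ± 221 CPM in WT and 841 ± 179 CPM in KO. The median log2 difference of the dehydrogenases was 0.34 in neonates and 0.21 in adults.

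Of the genes of peroxisomal dicarboxylic acid oxidation, 9 of 17 tested were called higher in neonates and 1 lower, against 5.21% and 16.0% of all tested genes. In adults 10 of 16 were called higher, against 5.50%, and 7 without WT adults 2 or KO adults 3. The median log2 difference was 0.38 in neonates and 0.45 in adults. The gene called lower was Acox3, a peroxisomal acyl-CoA oxidase, named after its values were seen (limma log2 -0.22). Ehhadh, a multifunctional enzyme of the peroxisomal cycle, rose from 203 ± 5.40 to 465 ± 44.3 CPM in neonates and from 196 ± 21.95 to 446 ± 33.6 CPM in adults (limma adjusted p = 7.17e-11 and 7.04e-06). The thiolase gene Acaa1b rose from 20.2 ± 2.82 to 49.2 ± 3.94 CPM in neonates and from 10.7 ± 4.48 to 56.4 ± 20.8 CPM in adults. Abcd3, a peroxisomal fatty acid transporter, rose 1.52-fold and 1.72-fold, and Acot4, which releases dicarboxylic acids from coenzyme A, 1.33-fold and 1.63-fold. Crot, which passes shortened chains on to carnitine, rose 1.38-fold in neonates and 1.32-fold in adults. Acsl1, an acyl-CoA synthetase, stood at 186 ± 6.35 and 194 ± 5.43 CPM in neonates and rose from 86.8 ± 6.09 to 183 ± 8.99 CPM in adults, a difference between ages that was called (limma log2 1.01, adjusted p = 2.19e-06).

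Of the PPAR-alpha targets outside the Cyp4 family, 16 of 21 tested were called higher in neonates and 1 lower, against 5.21% and 16.0% of all tested genes. In adults 14 of 21 were called higher, against 5.50%, and 1 of these, Acot1, named after its values were seen, passed the filter only through its KO libraries. The median log2 difference was 0.45 in neonates and 0.83 in adults. Slc25a20, the mitochondrial carnitine carrier, rose from 136 ± 12.4 to 202 ± 3.57 CPM in neonates and from 48.9 ± 2.34 to 149.8 ± 3.93 CPM in adults. Hadha, of mitochondrial beta-oxidation, rose 1.26-fold and 1.72-fold. Vnn1, Plin2 and Pdk4 also rose at both ages. Fabp1, which rose 1.80-fold in neonates and 1.79-fold in adults, and Fabp2 are also among the enterocyte markers above. The target called lower in neonates was Acadm, a mitochondrial acyl-CoA dehydrogenase, named after its values were seen (limma log2 -0.39). In adults no gene of the electron donor, peroxisomal or PPAR-alpha lists was called lower with limma, edgeR or DESeq2, and none had an unadjusted p under 0.05 in that direction.

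The receptors and corepressors showed mixed directions, with 5 of 14 called higher and 4 lower in neonates (5.21% and 16.0% of all genes) and 6 higher and 3 lower in adults (5.50% and 13.9%), Ncor1 among the lower at each age. Ppara, encoding PPAR-alpha, rose from 46.8 ± 5.08 to 93.1 ± 13.4 CPM in neonates and from 117 ± 18.6 to 266 ± 41.5 CPM in adults (limma log2 0.97 and 1.17, adjusted p = 1.39e-05 and 0.000782). Tbl1xr1, a subunit of the NCoR corepressor complex, rose 1.65-fold and 2.18-fold. Rxra, the partner receptor of PPARs, fell from 103 ± 0.0805 to 77.8 ± 3.26 CPM in neonates and stood at 151 ± 5.03 and 154 ± 15.9 CPM in adults. Pparg fell in adults from 23.6 ± 3.02 to 12.4 ± 2.40 CPM.

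Among enzymes that make or remove arachidonate and its products, other substrates of Cyp4 enzymes, 1 of 15 was called higher and 2 lower in neonates, shares near the 5.21% and 16.0% of all tested genes. In adults 5 of 14 were called lower, against 13.9% of all tested genes. The median log2 differences were -0.10 and -0.30. Hpgd, which inactivates prostaglandins, fell in adults from 406 ± 35.7 to 303 ± 18.3 CPM, and Pla2g4a, the phospholipase that releases arachidonate, from 19.3 ± 4.41 to 12.1 ± 0.177 CPM (limma adjusted p = 0.00565 and 0.0087). The epoxide hydrolase gene Ephx2 and Ptgs1, a prostaglandin synthase, also fell in adults, as did Ltc4s, which makes leukotriene C4 and was named after its values were seen (limma log2 -0.57). With TMM factors the counts were 2 higher and 0 lower in neonates and 2 lower in adults, and with RPKM the adult count was 1 lower. Without WT adults 2, WT adults 3 or any KO adult library, with no filter and with DESeq2 the adult count was 3 lower.

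**Figure D5:**
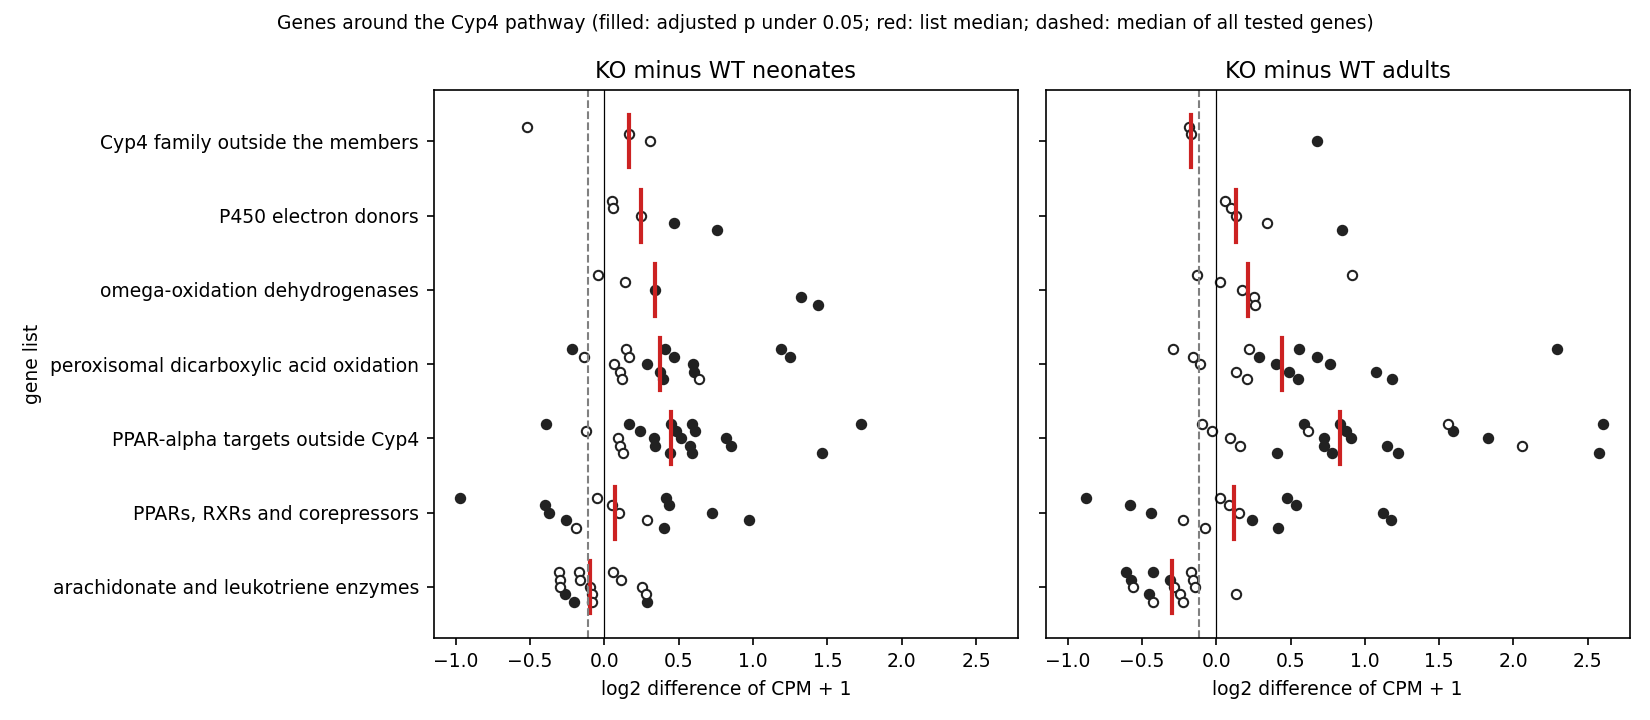
KO minus WT log2 difference of CPM + 1 (horizontal axis) of every tested gene in 7 lists around the Cyp4 pathway (rows), in neonates (left) and adults (right). Filled points had an adjusted p under 0.05, red bars are list medians and the dashed line is the median of all tested genes (-0.11); the peroxisomal and PPAR-alpha lists lie to the right of it, with medians from 0.38 to 0.83.

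For each tested member the 3 genes of most like pattern were sought among 10687 genes, as the root mean square distance between log2(CPM + 1) values over the 12 libraries, each gene centred on its own mean. This is a description, and much of each distance is set by the contrast between the ages. Nearest to Cyp4a10 were Paqr7 (0.49), Pdk4 (0.55) and Nr0b2 (0.59), of which Paqr7 stood at 119 ± 9.91, 210.0 ± 10.8, 19.0 ± 1.99 and 112 ± 28.7 CPM in WT neonates, KO neonates, WT adults and KO adults. Nearest to Cyp4b1 were Krt20 (0.24), Slc16a5 (0.24) and Aspa (0.25), and Aspa (0.34) was also near to Cyp4v3, between Mgam (0.32) and Ocm (0.37). Nearest to Cyp4f14 were Maoa (0.32), Ang4 (0.35) and Slc28a1 (0.44), Ang4 being also a Paneth marker. Cyp4f16 was most like Cpt2 (0.15), Cdcp1 (0.16) and Ceacam20 (0.16), with Cpt2 at 171 ± 12.6, 232 ± 15.4, 147 ± 8.13 and 244 ± 19.4 CPM in the same order of groups. Cyp4f13, which hardly varied, was nearest to Tars2 (0.06), Ctnna1 (0.07) and Sec24a (0.07).

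The authors' deposited table gives its own log2 fold changes and false discovery rates for the members. In the authors' deposited table, Cyp4a10 was higher in KO by 1.45 in neonates and 3.07 in adults (false discovery rates 9.48e-21 and 3.55e-20), so the adult value that limma did not call was called there. The authors' deposited table also lists Cyp4f16 as higher at both ages, by 0.40 and 0.96 (0.0235 and 1.85e-09), and Cyp4f13 in neonates, by 0.29 (0.0292). For Cyp4v3 the authors' deposited table gives 0.996 in neonates and -0.72 in adults, and for Cyp4b1 1.43 and 0.04, the same signs as above except for the adult value of Cyp4b1.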

How the data were processed

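RNA of whole small intestine was sequenced for 36 cycles from 12 libraries in 4 groups. Per the file headers, the authors counted exonic reads per gene on one strand with HOMER against mm9, and the submitters' processing notes name Bowtie 0.12.2. The deposited gene tables, 1 per age, hold a scaled read signal and the authors' RPKM value for each library. The authors' deposited log2 fold changes and p-values (as false discovery rates) are quoted only where named. The scaled values were whole multiples of 1 read within 0.01 for 100% of values, so reads were recovered and CPM computed. The design had named a count test for raw counts; because the values are scaled, limma 3.58.1 (R 4.3.3, trend and robust) on log2(CPM + 1) was used, on genes at 1 CPM or more in at least 3 libraries, within each age and in 1 fit of all 4 groups for the age difference. The alternatives were edgeR 4.0.16 and DESeq2 1.42.0 on recovered reads, TMM factors, RPKM, a pseudocount of 0.25, no filter, a filter at 5 CPM, a replicate block and leaving out each library. Depth ran from 5930748 to 13057329 recovered reads per library, and a floor of 3 reads covers counting error only. The main limma fits, within each age and for the age difference, were tested on simulated data, and the alternatives were not. Sequences were read with Python 3.11.15 and Biopython 1.88.

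The members and gene lists were chosen with earlier results of these data known. Named were the members, Ncor1, every tested Cyp4 gene, up to 4 called genes of each list per age with the lowest adjusted p, and the 3 genes most like each member; exceptions are marked, and 1 gene that the rule names is not reported here.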

Additional observations from a re-analysis of the deposited data

Results flagged for a closer look

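Among the members, Ncor1 and the pathway list genes picked by the naming rule above, the following had a KO effect that differed between adults and neonates. The fit was of all 4 groups (limma, adjusted p under 0.05), and values are the adult effect less the neonatal one on the log2 scale. Among the Cyp4 genes these were Cyp4v3, with -1.72, and Cyp4b1, with -1.25. Ncor1 itself differed by 0.39, its fall being smaller in adults. Of the genes around the pathway, Acsl1 differed by 1.01 and Slc25a20 by 1.02, and Hadha by 0.44, each with a larger rise in adults or a rise called in adults alone. Tbl1xr1 differed by 0.40, rising more in adults, and Rxra by 0.42, having fallen in neonates. Counting every tested list gene, 6 of 21 PPAR-alpha targets and 2 of 17 peroxisomal genes were called with a higher effect in adults. Of 14 receptors and corepressors, 3 were called with a higher and 1 with a lower effect in adults. The shares of all tested genes were 3.02% higher and 2.44% lower. With 3 libraries a group, single libraries were not tested for standing apart.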

How the results depend on the processing

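Calls on Cyp4b1 in neonates, Cyp4f16 and Cyp4v3 in adults and the age difference of Cyp4b1 and Cyp4v3 held under every alternative run. In neonates the genes called higher numbered 1337 with TMM factors, 436 with RPKM and 1356 with edgeR, those lower 1027 with TMM, 1038 with edgeR and 570 with DESeq2, and those called in all 1585 with DESeq2. In adults those higher numbered 1250 with TMM and 1243 with edgeR, those lower 911 with TMM, 413 with RPKM, 917 with edgeR and 684 with DESeq2, and those in all 1119 with RPKM. The Cyp4 members called higher in adults numbered 2 with a filter at 5 CPM and with DESeq2, Cyp4a10 being the added gene. For the age difference RPKM gave 871 higher, 121 lower and 1 member higher. The cause of these shifts was not tested.

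Leaving out 1 library at a time gave 2020 to 2581 calls in neonates (594 to 660 higher, 1426 to 1979 lower; members 1 to 3 higher, 0 lower), 1281 to 2552 in adults (437 to 732 higher, 844 to 1840 lower; members 1 higher and 1 lower) and 517 to 1047 for the age difference (281 to 598 higher, 226 to 449 lower; members 0 to 1 higher, 2 lower). With a replicate block the counts were 3575, 2272 and 792, and the age difference of 1 member, Cyp4f16, was then called higher. Cyp4a10 in neonates was then not called (limma adjusted p = 0.0926). Deviations of same-numbered libraries correlated across genes by 0.1605, 0.139 and 0.0286 in neonates and 0.0616, -0.212 and -0.121 in adults; 1 neonatal pair and all adult pairs are under 0.1, so pairing by number was not shown.

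Signs turned only for values near 0 that were not called. These were Cyp4f14 in neonates (-0.0394 with RPKM, -0.177 to 0.175 without 1 library), Acsl1 in neonates (-0.00883 with RPKM), in neonates with TMM, edgeR and DESeq2 Hpgd (0.00998, 0.0125 and 0.0126) and Ephx2 (0.0239, 0.0178 and 0.0176), Cyp4b1 in adults (0.0496 with TMM, 0.0459 with RPKM, 0.0470 with edgeR and 0.0465 with DESeq2, -0.135 to 0.0701 without 1 library), and the age difference of Cyp4f13 (0.0164 with RPKM). Without 1 library they were also Cyp4f13 (-0.0247 to 0.0606), Cyp4f18 (-0.35 to 0.0446) and Rxra (-0.0384 to 0.11) in adults and the age difference of Cyp4f14 (-0.34 to 0.0128). Depth limits Cyp4a14 and the 10 other Cyp4 genes with group means under 1 CPM.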
